A study of Homo sapiens with 6 samples.

Results

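The genes described here encode the Notch receptors and the proteins and RNA that act on them inside the cell: NOTCH1, NOTCH2, NOTCH3 and NOTCH4, the transcript NALT1, the feedback inhibitor NRARP, the adaptors NUMB and NUMBL, and the Deltex ligases DTX1 and DTX2. All probe sets that the array's annotation assigned to 1 of these 10 genes alone were taken, which gave 17 of the 54674 probe sets on the array. Each of the 10 genes, of 19775 genes with such a probe set, had at least 1. RNA came from LS174T, a mucin-producing human colon adenocarcinoma line, after 48 h with CompE at 250 nM (3 cultures) or after 48 h with the vehicle DMSO (3 cultures), with 1 Affymetrix Human U133 Plus 2.0 array per culture. The labels write CompE without spelling it out; the gamma-secretase inhibitor Compound E is commonly abbreviated this way. The labels name no genetic change in either group, and all 6 cultures are of the same line, so that the data describe 1 cancer line and not normal colon.

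Notch receptors are single-pass membrane proteins that are cut when a ligand on a neighbouring cell pulls on them. An ADAM protease makes the outer cut, gamma-secretase then cuts within the membrane, and the released intracellular part enters the nucleus, where it joins the DNA-binding protein RBPJ and a Mastermind coactivator. In the intestine this signal keeps progenitors from the secretory fate, with NOTCH1 and NOTCH2 as the receptors of the epithelium. NRARP is induced by Notch and promotes loss of the intracellular part, NUMB and NUMBL steer receptors into endocytosis, and Deltex proteins are ubiquitin ligases that bind the receptor's intracellular part. NALT1, a long non-coding RNA, takes its name from NOTCH1 and T cell leukaemia.

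NOTCH1, NALT1 and NRARP, on which the results turn, all lie on chromosome 9 in the RefSeq annotation of GRCh38.p14, with NOTCH1 and NRARP on the minus strand and NALT1 on the plus strand. NALT1 is the next gene beyond the NOTCH1 start that has a probe set past the filter, and the pair is transcribed in opposite directions away from each other. Their promoter windows, 250 bases before to 50 after the start, are shown because these 3 genes lie on 1 chromosome and the results turn on them. The windows are NOTCH1 at chr9:136545999-136546298 (minus strand), NALT1 at chr9:136547592-136547891 (plus strand) and NRARP at chr9:137302222-137302521 (minus strand), each printed 5′ to 3′ with matches to the motifs searched in capitals.
NOTCH1: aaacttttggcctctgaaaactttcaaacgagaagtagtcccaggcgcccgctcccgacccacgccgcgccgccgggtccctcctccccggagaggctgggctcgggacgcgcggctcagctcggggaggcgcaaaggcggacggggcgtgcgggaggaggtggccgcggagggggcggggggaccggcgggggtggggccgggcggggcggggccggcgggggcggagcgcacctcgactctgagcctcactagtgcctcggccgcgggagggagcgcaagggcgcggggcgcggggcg
NALT1: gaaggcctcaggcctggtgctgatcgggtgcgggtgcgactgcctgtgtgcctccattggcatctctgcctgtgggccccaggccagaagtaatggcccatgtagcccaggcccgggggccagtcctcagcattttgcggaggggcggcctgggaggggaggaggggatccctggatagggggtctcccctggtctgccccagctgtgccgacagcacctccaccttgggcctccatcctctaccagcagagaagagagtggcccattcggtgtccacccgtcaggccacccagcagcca
NRARP: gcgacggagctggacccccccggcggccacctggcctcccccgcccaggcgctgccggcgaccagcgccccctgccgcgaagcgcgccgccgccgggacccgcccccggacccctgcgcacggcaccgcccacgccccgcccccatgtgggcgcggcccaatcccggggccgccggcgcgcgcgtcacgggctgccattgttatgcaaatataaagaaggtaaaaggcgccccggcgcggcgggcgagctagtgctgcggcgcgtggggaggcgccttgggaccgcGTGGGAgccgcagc
The motif TGGGAA, the core of the RBPJ binding sequence, was searched on both strands and occurred in none of these 3 windows, while 24.0% of the 35116 RefSeq windows of this length hold it. Windows were found for 9 of the 10 genes (10 windows, NUMBL having 2), and DTX2 was the gene with a match. A second motif, GTGGGA, chosen after the sequences were seen and ending in the letters that begin TGGGAA, occurred once in the NRARP window, starting 37 bases into the transcript, and in 4 of the 10 windows, against 22.3% of all windows. A match is a description of letters and not a binding site.

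The values are probe set intensities on the linear dChip scale, and tests were made on log2 values. Array medians lay between 36.9 and 38.6. Arrays correlated at r = 0.987 to 0.988 within groups and at 0.981 to 0.985 between groups, across probe sets. HES1, the repressor that Notch induces, was at 289 ± 29.2 in CompE and 811 ± 58.2 in DMSO (SD, n = 3 each), and ATOH1, the secretory commitment factor that HES1 represses, was at 574 ± 53.7 in CompE and 94.1 ± 13.2 in DMSO; both were called (limma adjusted p = 0.00405 for HES1 and adjusted p = 0.0022 for ATOH1). All 9 colon epithelium markers exceeded the background level on every array, among them EPCAM, VIL1 and CDX2. Of the 9, 2 were called higher in CompE: CDX2 (log2 change 0.43, limma adjusted p = 0.0228) and MUC2 (log2 change 1.05, limma adjusted p = 0.00378). Of the leukocyte markers, PTPRC and CD3E lay at or below background on every array, and CD14 exceeded it on 1 CompE array and 3 DMSO arrays. The summed level of the 4 leukocyte markers with a probe set was 1204 to 1446 in CompE and 1559 to 1848 in DMSO. LYZ, which the intestinal epithelium also makes, supplied nearly all of it, and 0 of the 3 that were tested passed in limma (LYZ, with the lowest adjusted p, had 0.177). In each of the lists of T cell leukaemia, fibroblast and endothelium markers 1 exceeded background on every array (PTCRA, COL1A1 and PECAM1). No marker of these lists was called. For ACTB, the log2 ratio of the 3′ to the 5′ probe set, which reads RNA integrity, was 1.51 ± 0.0193 in CompE and 1.44 ± 0.0201 in DMSO. The hybridisation controls were brighter in CompE by 0.14 log2 units (exact permutation p = 0.1 for this and for ACTB, the smallest that 3 against 3 arrays allow). The same log2 ratio for GAPDH was 0.946 ± 0.0264 in CompE and 0.968 ± 0.0106 in DMSO (exact permutation p = 0.3). The part of these differences in the results below was not tested.

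Of the 17 probe sets, 14 passed the filter on dim probe sets and 3 did not (1 each of NOTCH3, NOTCH4 and DTX1), which left DTX1 untested. The background level was taken as the 95th percentile of the array's Bacillus control probe sets, an intensity of 45.7, and 8 of the 17 exceeded it on all 6 arrays. In CompE 1 of the 14 rose (NOTCH1), 1 fell (NALT1) and 12 did not pass the threshold of an adjusted p of 0.05 in limma, with p-values adjusted over all 32767 probe sets tested. Over all probe sets 3.04% were called, 1.93% higher and 1.1% lower in CompE. Centring on the hybridisation controls gave 1 higher and 3 lower among the 14, and 356 higher and 1441 lower among all probe sets. The groups did not overlap for 4 of the 14 (28.6%), against 28.4% of all probe sets, so that separation of the groups was no more common among these genes than elsewhere. The median log2 difference was -0.05 for the 14 and 0.01 for all probe sets. These counts describe the 14 and not all 17, since a filter on the mean of all arrays can pass a probe set through 1 group. In both groups the mean of each of the 14 reached the filter. NALT1 was at its edge in CompE (mean log2 4.613, against a filter of 4.612) and well above it in DMSO (6.493).

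**Figure D1:**
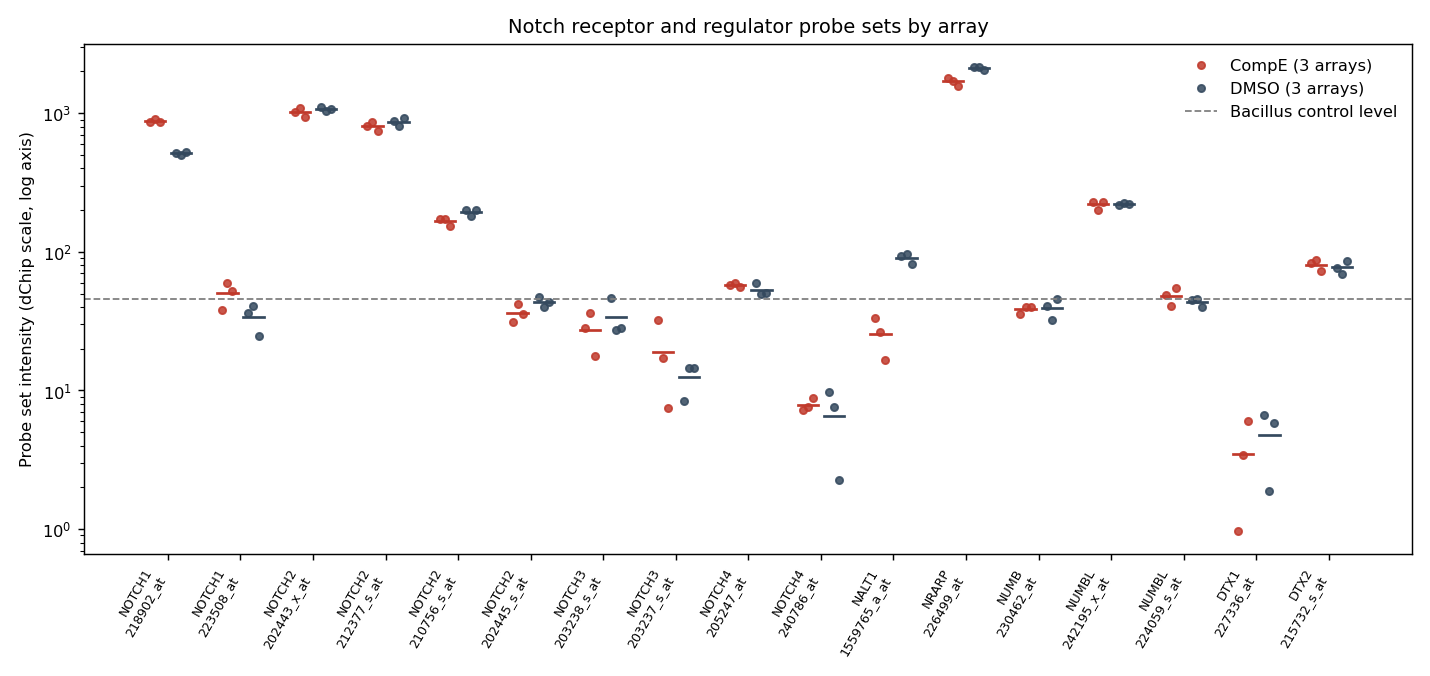
Intensity (log axis) of each of the 17 probe sets on each array, CompE in red to the left of DMSO in dark grey, with a bar at each group's mean and a dashed line at the Bacillus control level of 45.7. NOTCH1 218902_at is higher on all 3 CompE arrays, NALT1 and NRARP are lower on all 3, and the probe sets of NOTCH3 and DTX1 lie near or below the dashed line.

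NOTCH1, the receptor most often mutated in T cell leukaemia, was measured by a bright and a dim probe set. The bright one (218902_at) was at 869.5, 911 and 865 on the CompE arrays, against 518, 502 and 521 on the DMSO arrays. Every CompE array exceeded every DMSO array by a wide margin, and the spread within either group was small. NOTCH1 rose 1.72-fold, to 882 ± 25.2 in CompE against 514 ± 10.5 in DMSO (SD, n = 3 each; log2 change 0.78 ± 0.06 SE, 95% interval 0.64 to 0.92, limma adjusted p = 0.00462). The dim probe set (223508_at) was at 38.1, 59.6 and 52.6 in CompE and at 36.4, 40.6 and 24.6 in DMSO. No DMSO array and 2 of the 3 CompE arrays exceeded the background level, and the groups overlapped. Its log2 difference of 0.57 had the same sign but a wide interval, -0.03 to 1.18 (limma adjusted p = 0.266). In whole-culture RNA, a change in the share of cells that express a gene cannot be told apart from a change in the RNA per cell.

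NOTCH2, the receptor that acts beside NOTCH1 in intestinal crypts, had 4 probe sets, all with differences below 0 and none of them called. The brightest (202443_x_at) was at 1028, 1082 and 943 in CompE, against 1115, 1029.8 and 1068 in DMSO. The groups overlapped, and the log2 difference of -0.08 had an interval of -0.26 to 0.11 (limma adjusted p = 0.631), so that a fall of more than 0.26 or a rise of more than 0.11 on the log2 scale lies outside it. Probe set 212377_s_at gave -0.11 with overlapping groups. Probe set 210756_s_at was at 172, 172 and 154 in CompE and at 202, 181 and 199 in DMSO. Here the groups did not overlap, and the log2 difference was -0.22 (interval -0.42 to -0.03, limma adjusted p = 0.189). The dimmest (202445_s_at, -0.27) exceeded background on 0 CompE arrays and on 1 DMSO array. A further probe set (227067_x_at) is listed under NOTCH2 together with its NOTCH2NL relatives and was not counted, and 202443_x_at carries the suffix that Affymetrix gives to probe sets that can bind related sequences, so that the relatives may contribute to it.

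NOTCH3, which is best known from vascular smooth muscle, had no probe set clearly above background. Probe set 203238_s_at was at 28.4, 36.4 and 17.6 in CompE, against 46.7, 27.1 and 28.4 in DMSO, where a single array exceeded the background level. The groups overlapped (log2 difference -0.33, interval -1.14 to 0.49, limma adjusted p = 0.633), which leaves changes of more than 2-fold in the interval. The difference was -0.04 without CompE replicate 3, -0.08 without DMSO replicate 1 and -0.56 without CompE replicate 2. NOTCH4, a receptor known mainly from endothelium, was just above background on every array with 205247_at. It was at 58.0, 59.4 and 56.1 in CompE and at 59.95, 49.98 and 50.6 in DMSO. The groups overlapped, and the difference of 0.12 was not called (interval -0.10 to 0.34, limma adjusted p = 0.513) and changed sign, to -0.03, when arrays were centred on the hybridisation controls. The other probe sets of NOTCH3 and NOTCH4 were below the filter and below background on every array.

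Whether the change of NOTCH1 differed from that of NOTCH2 and NOTCH4 was tested with the log2 ratio of the brightest probe sets within each array, which does not depend on array scaling. The ratio of NOTCH1 to NOTCH2 was 0.85 log2 units higher in CompE, at -0.20 ± 0.07 in CompE and -1.06 ± 0.04 in DMSO (SD, n = 3 each; exact two-sided permutation p = 0.1). The ratio to NOTCH4 was 0.66 units higher (3.93 ± 0.02 in CompE and 3.27 ± 0.14 in DMSO; exact permutation p = 0.1, n = 3 each). In both ratios all CompE arrays lay above all DMSO arrays, and 0.1 is the smallest p this design allows, before any adjustment. The ratio to NOTCH3 was also computed but is not read here, because NOTCH3 exceeded background on 1 of the 6 arrays. The ratios compare changes and not levels, since probe sets bind with different strength. NOTCH4 lay just above background on every array, where a change is hard to read, so its ratio mainly carries the change of NOTCH1.

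NALT1, the non-coding RNA next to NOTCH1, moved the other way. Its probe set (1559765_a_at) was at 33.5, 26.3 and 16.7 in CompE, against 92.8, 96.8 and 81.2 in DMSO. All CompE arrays were below the background level of 45.7 and all DMSO arrays above it. The fall was therefore at least 1.97-fold against background (group means 25.5 ± 8.45 in CompE and 90.3 ± 8.11 in DMSO, SD, n = 3 each; fitted log2 change -1.88 ± 0.26 SE, limma adjusted p = 0.0263). The call was not stable: it ended without CompE replicate 2 (adjusted p = 0.0855) and without DMSO replicate 1 (adjusted p = 0.0935), 2 (adjusted p = 0.107) or 3 (adjusted p = 0.0891), and also where dim probe sets were kept (adjusted p = 0.109). The fitted change stayed between -2.11 and -1.38 over all 15 alternatives that tested it. Those that change only the filter, unit, block or variance model cannot alter its size.

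NRARP, a small ankyrin repeat protein that forms a feedback loop on Notch, was at 1798, 1718 and 1579 in CompE, against 2147, 2141 and 2065 in DMSO. All CompE arrays lay below all DMSO arrays, and the spread was wider in CompE. The mean was 1698 ± 111 in CompE and 2118 ± 45.9 in DMSO (SD, n = 3 each), a log2 difference of -0.32 ± 0.07 SE (interval -0.49 to -0.15) that did not pass over all probe sets (limma adjusted p = 0.0756). It passed when each gene was represented by its brightest probe set and p-values were adjusted over 14308 genes (adjusted p = 0.0418), and when arrays were centred on the hybridisation controls (log2 difference -0.46, adjusted p = 0.0262). The log2 difference was negative in all 17 alternatives. Those that change only the filter, unit, block or variance model cannot alter it. NRARP was called in 6, among them the selection of the least variable probe sets, which lowers p by construction. It was not called whichever array was left out (limma adjusted p from 0.138 to 0.197), nor where dim probe sets were kept (limma adjusted p = 0.250). At about 1.25-fold, its difference was far smaller than that of HES1 in the same arrays, whose log2 change was -1.49 ± 0.10 SE.

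**Figure D2:**
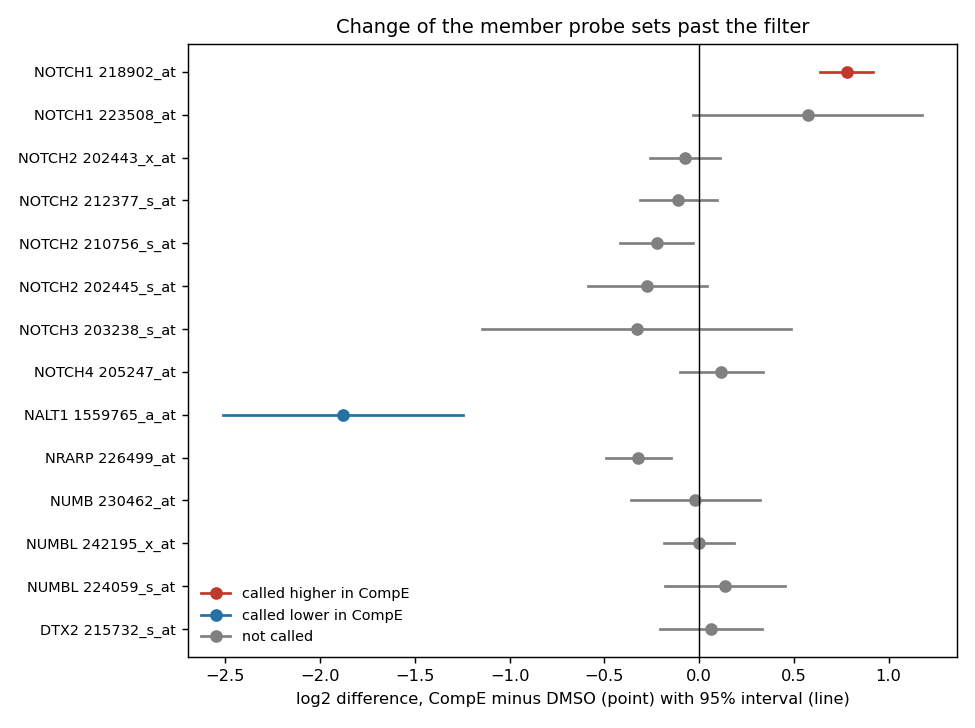
Log2 difference, CompE minus DMSO, of the 14 probe sets past the filter, with the 95% interval of limma as a line; red marks a probe set called higher, blue 1 called lower and grey those not called. The interval of NOTCH1 218902_at (0.64 to 0.92) lies above 0 and that of NALT1 below it, the interval of NRARP (-0.49 to -0.15) lies below 0 without a call after adjustment, and those of NUMB, NUMBL and DTX2 include 0.

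The adaptor and Deltex genes gave no call. NUMBL, the relative of NUMB that is best known from neural cells, was at 231, 202 and 230.3 in CompE, against 216, 224 and 221 in DMSO, with 242195_x_at. The groups overlapped around nearly equal means, and the interval of the log2 difference was -0.18 to 0.18 (limma adjusted p = 0.9996). Its dim probe set (224059_s_at) gave 0.14 (interval -0.18 to 0.46). NUMB, the endocytic adaptor that opposes Notch, had a single probe set of its own, 230462_at, at 35.8, 40.1 and 40.2 in CompE and at 40.6, 32.4 and 45.8 in DMSO. These values lay at or below background on 5 of the 6 arrays and overlapped (log2 difference -0.02, interval -0.36 to 0.32, limma adjusted p = 0.952). The other 3 probe sets that name NUMB are listed with a second, non-coding locus and were not attributed to either gene, although the RefSeq table of GRCh38.p14 places that locus beside NUMB and not within it. Of these, 209073_s_at was at 396 ± 2.00 in CompE and 391.7 ± 2.13 in DMSO (SD, n = 3 each; log2 difference 0.02, interval -0.11 to 0.14). Probe set 207545_s_at was at 198, 207 and 245 in CompE and at 211, 275 and 208 in DMSO, with overlapping groups (log2 difference -0.09, interval -0.44 to 0.26). Both exceeded background on all 6 arrays, unlike the probe set of NUMB alone, and the remaining one (236930_at) was below the filter. Together with the NOTCH2NL probe set these made 4 of shared listing, of which 3 passed the filter and 0 were called in limma (lowest adjusted p = 0.674; no value was under 0.05 before adjustment).

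DTX2, a Deltex ubiquitin ligase with broad expression, was at 82.5, 87.2 and 72.4 in CompE, against 76.8, 69.7 and 85.5 in DMSO (215732_s_at). The groups overlapped, and the log2 difference of 0.06 (interval -0.20 to 0.33, limma adjusted p = 0.793) changed sign under the centring on hybridisation controls (-0.08). DTX1, a Deltex gene that Notch induces in lymphoid cells, was at 0.972, 3.42 and 6.05 in CompE and at 6.69, 1.87 and 5.79 in DMSO, far below background on all 6 arrays, and no change can be read from it.

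NOTCH1, NALT1 and NRARP were set against the genes beside them. The 3 nearest genes with a probe set past the filter on each side of NOTCH1 were INPP5E, SEC16A and C9orf163 on 1 side and NALT1, AGPAT2 and DIPK1B on the other. None but NALT1 was called, and their log2 differences ran from -0.09 (DIPK1B, below background) to 0.15 (C9orf163). SEC16A, a gene of the export sites of the endoplasmic reticulum, was at 1061 ± 38.6 in CompE and 1023 ± 36.4 in DMSO (SD, n = 3 each; log2 difference 0.05, limma adjusted p = 0.684). Around NRARP, TOR4A differed by -0.23 with groups that did not overlap (limma adjusted p = 0.131), while PNPLA7, a lysophospholipase gene, rose to 174 ± 20.1 in CompE against 105 ± 4.80 in DMSO (SD, n = 3 each; log2 change 0.72, limma adjusted p = 0.0279). STPG3, NELFB, EXD3 and NOXA1 were not called.

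**Figure D3:**
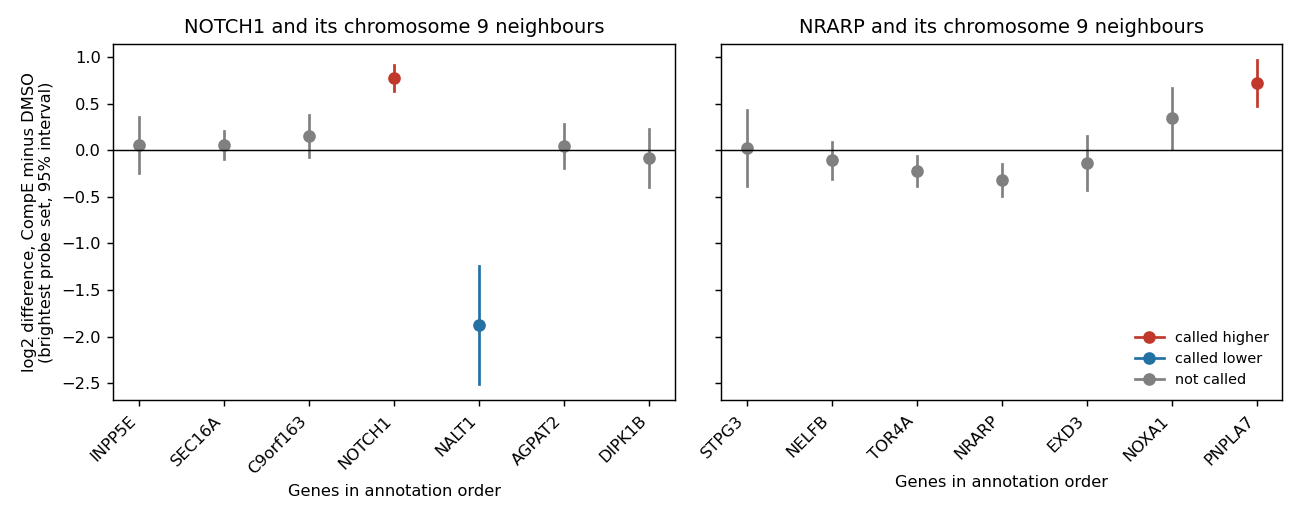
Log2 difference, CompE minus DMSO, with its 95% interval for NOTCH1 (left panel) and NRARP (right panel) and the 3 nearest measured genes on each side, in annotation order and not to scale; red marks genes called higher, blue genes called lower and grey those not called. NOTCH1 (0.78) and NALT1 (fitted at -1.88, with all CompE arrays below background, so at least 1.97-fold lower) stand beside each other with opposite signs, while the other neighbours of NOTCH1 lie between -0.09 and 0.15.

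The probe sets of other genes most like NOTCH1 over the 6 arrays, by Pearson's r of log2 values with 218902_at, were those of SMOC2 (r = 0.9999), VPS36 (r = 0.9991), CCSER2 (r = 0.9986), ASF1A (r = 0.9983) and RGMB (r = 0.9983). The 6 arrays fall into 2 groups, so that r mainly reflects the separation of the groups. SMOC2, which encodes a matrix protein, was at 959 ± 43.7 in CompE and 419 ± 9.97 in DMSO, and RGMB, a BMP co-receptor gene, at 4348 ± 116 in CompE and 2186 ± 49.9 in DMSO (SD, n = 3 each). Among the genes described here, r with NOTCH1 was -0.95 for NALT1 and -0.94 for NRARP, and -0.44 for the brightest NOTCH2 probe set.

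The rest of the Notch pathway was read from lists of 83 genes, of which 78 had a probe set of their own and 71 passed the filter, each gene by its brightest. The lists were chosen with earlier results of these data known, so their share of calls is a description and no test of the pathway. Of the 71, 4 rose, 2 fell and 65 did not pass in the limma fit (8.45%, against 3.84% of all 14308 genes by their brightest probe set, of which 2.53% were called higher and 1.31% lower), and their median log2 difference was 0.05, beside 0.02 for all genes. Centred on the hybridisation controls, 3 were called higher and 4 lower. Before adjustment, 1942 of all 14308 genes were above 0 and 1214 below 0 at p under 0.05, against 14 and 8 of the 71. Of 7 ligand genes 2 rose: DLL4, at 364 ± 13.0 in CompE against 104 ± 5.61 in DMSO, and DLL1, at 1122 ± 105 in CompE against 439 ± 2.44 in DMSO (SD, n = 3 each). Of 8 genes of receptor glycosylation 1 rose, the Fringe gene LFNG, whose product modifies Notch receptors. It was at 1083 ± 38.3 in CompE and 448 ± 7.73 in DMSO (SD, n = 3 each). LFNG also stands in the list of targets, where of 17 tested LFNG and HES6, a HES gene that opposes HES1 (log2 change 0.58), rose and HES1 and OLFM4, a crypt glycoprotein gene (log2 change -2.60), fell.

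The genes of receptor cleavage, of the nuclear complex and its corepressors, and of ubiquitin ligases, endocytosis and turnover gave no call. In limma, 0 of 8 cleavage genes were called (0 at an unadjusted p under 0.05), among them NCSTN of gamma-secretase (log2 difference 0.19) and ADAM10 (0.11). Of 11 genes of the nuclear complex and its corepressors 0 were called (3 above 0 and 0 below 0 before adjustment, at p under 0.05). RBPJ, the DNA-binding partner of all 4 receptors, was at 1198 ± 33.7 in CompE and 1041 ± 29.1 in DMSO (SD, n = 3 each), with groups that did not overlap (log2 difference 0.20, limma adjusted p = 0.129). Of 21 genes of ubiquitin ligases, endocytosis and turnover 0 were called (6 above 0 and 1 below 0 before adjustment, at p under 0.05). The closest was AAK1, a kinase of the endocytic adaptor complex, at 557 ± 13.3 in CompE and 449 ± 32.1 in DMSO (log2 difference 0.31, limma adjusted p = 0.0870). The Deltex relatives outside the set gave 0.27 for DTX3L (limma adjusted p = 0.142), -0.02 for DTX4 and -0.07 for DTX3, which lay below background. In the alternative of limma with an intensity trend and robust settings 13 of the pathway genes were called, 9 higher and 4 lower. The same settings raised the calls among all 32767 probe sets from 995 to 3532.

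**Figure D4:**
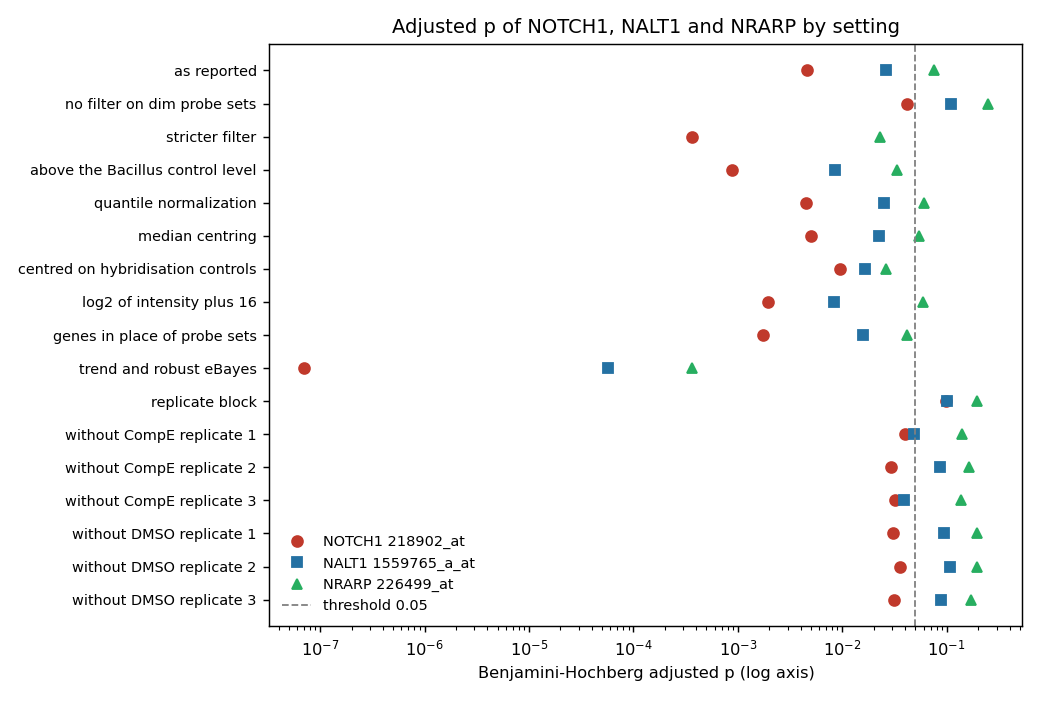
Benjamini-Hochberg adjusted p (log axis) of NOTCH1 218902_at (red circles), NALT1 (blue squares) and NRARP (green triangles) as reported and under 16 alternative settings, with the threshold of 0.05 as a dashed line; the selection of the least variable probe sets is not drawn. NOTCH1 stays left of the line in all settings drawn but the replicate block, NALT1 crosses it in 6 and NRARP lies left of it in 5.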

How the data were processed

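RNA of 6 LS174T cultures (3 CompE, 3 DMSO, 48 h) was measured on 1 array each; groups and replicate numbers came from the sample titles. Per the labels' protocols a 3′ IVT kit served to amplify and label the RNA, and per the series' design text the authors normalized intensity differences between arrays in dChip. The deposited table holds 1 linear intensity per probe set. Use of mismatch probes was not given in the sources used here, and neither was the exact rule by which the authors chose 10,896 probes of low variation, a choice that the table does not reflect.

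Values under 1 were raised to 1 before log2, without further normalization. The 62 control probe sets and those in the lowest 40% of mean log2 value (below 4.61, an intensity of 24.4) were left out, which left 32767 probe sets. The platform annotation (2016) gave 41097 probe sets 1 gene and 1800 several, and symbols were updated through the Entrez identifier in the RefSeq gene table of GRCh38.p14 (41043 matched). CompE was compared with DMSO in limma 3.58.1 (R 4.3.3; lmFit and eBayes, two-sided, no covariate), adjusted by Benjamini-Hochberg over all probe sets; the procedure was tested on simulated data. Precision is limited by the number of arrays, with a median SE of 0.10 on the log2 difference. "At least" marks a fold against the 95th percentile of 27 Bacillus control probe sets (intensity 45.7). Probe sets, not genes, were the unit, since several genes have probe sets that differ.

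Named genes were all 10 members; from each pathway list at most 2 called higher and 2 lower with the smallest p; the 5 probe sets most like NOTCH1; HES1 and ATOH1; and 3 neighbours on each side of NOTCH1 and NRARP. NCSTN, ADAM10, RBPJ, AAK1, DTX3, DTX3L and DTX4 were chosen after their values were seen. The members and lists were chosen with earlier results of these data known. Alternatives were other filters, scalings, transforms and variance models, genes as the unit, the replicate number as a block, and each array left out.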

Additional observations from a re-analysis of the deposited data

How the results depend on the processing

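The rise of NOTCH1 218902_at was between 0.64 and 0.79 on the log2 scale in all 17 alternatives. The size of a difference cannot change where only the filter, unit, block or variance model is changed. This rise was called in 16, the exception being the replicate block (limma adjusted p = 0.098, and 0.0996 for NALT1). Without 1 array the limma adjusted p of NOTCH1 218902_at ran from 0.0295 to 0.0395. NALT1 was called in 9 of 15 alternatives and NRARP in 6 of 17. The number of NOTCH receptor and regulator probe sets called, 2 as reported, was 1 with no filter on dim probe sets, 4 with arrays centred on hybridisation controls, 0 with the replicate block and 1 to 2 without 1 array. The number was 3 above the Bacillus control level, with genes as the unit, among the 10,896 least variable probe sets and with trend and robust eBayes. With the stricter filter the 2 called were NOTCH1 218902_at and NRARP (limma adjusted p = 0.0229), and NALT1 was not tested. Centring on hybridisation controls, which moved the median of all probe sets to -0.13, added NRARP and NOTCH2 210756_s_at (-0.37, adjusted p = 0.0440).

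The number of all probe sets called, 995 as reported, was 130 with no filter, 2604 with the stricter filter (lowest 60% left out), 2137 above the Bacillus control level, 1797 centred on hybridisation controls, 4602 among the 10,896 least variable probe sets, 3532 with trend and robust eBayes, 0 with the replicate block and 148 to 288 without 1 array (148 without CompE replicate 1, 263 without CompE replicate 2, 288 without CompE replicate 3, and 221, 179 and 205 without DMSO replicates 1, 2 and 3). The 10,896 were chosen by their small spread within groups, a median SD of 0.06 against 0.13, which lowers p by construction. The share of calls that were higher in CompE was 63.6% as reported and 19.8% centred on hybridisation controls. The other Notch pathway genes called, 6 as reported, numbered 21 among the least variable, 13 with trend and robust eBayes, 0 with the block and 5 without any 1 array; centring on hybridisation controls gave 3 higher and 4 lower, against 4 higher and 2 lower as reported.

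The replicate block gave 0 calls in limma with 5668 probe sets at an unadjusted p under 0.05 (3 of the 14) and a lowest adjusted p of 0.0744. Arrays with the same replicate number deviated from their group means with r = 0.02, -0.08 and -0.02, so the numbers were not taken as pairs. With the block the exact permutation p of the receptor ratios was 0.25, the smallest that 3 blocks allow.

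Sign changes, none of them called, were those of NOTCH4 205247_at (-0.025), NUMBL 224059_s_at (-0.0046) and DTX2 (-0.079) when centred on hybridisation controls; of NUMBL 242195_x_at (5.5e-05) with log2 of intensity plus 16; and, without 1 array, of NUMB 230462_at (range -0.159 to 0.0903; above 0 without CompE replicate 1, DMSO replicate 1 or DMSO replicate 3), NUMBL 242195_x_at (range -0.0326 to 0.0638; above 0 without CompE replicate 2, DMSO replicate 2 or DMSO replicate 3) and DTX2 (range -0.0092 to 0.139; below 0 without DMSO replicate 2). The cause of these changes was not tested. Dim signal limits NOTCH3, DTX1 and the probe set of NUMB alone.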
